A study of Helianthus annuus with 6 samples.

Results

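The 200 brightest probes of a sunflower array were followed in leaf discs that expressed a WRKY transcription factor and in control discs. A probe qualified when it had a value on all 6 arrays and every spot of it was well above background on each, by the scanner software's flag. Probes were then ordered by their mean level over the 6 arrays, without regard to group, and ranks 1 to 200 were kept. Level means the log2 processed signal minus the 75th percentile of that array. The 200 members were drawn from 19709 qualifying probes and make up 0.938% of the 21325 tested probes and 0.497% of the 40243 probes on the array.

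The 3 samples named HaWRKY10 carried HaWRKY10 behind the constitutive 35S promoter in the pBI121 vector, and the 3 control samples carried the GUS reporter behind the same promoter in that vector. All 6 were discs of V3-stage leaves of sunflower (Helianthus annuus), given the construct transiently, and the plants had been grown in long days (16 h light, 8 h dark, 25 °C). Replicates are described as biological in the design text of the series. That text gives the factor as HaHB11, whereas each sample label gives HaWRKY10; the sample labels were used, and the disagreement is not settled. Replicate 1 of each group shared slide 1, and likewise replicates 2 and 3 shared slides 2 and 3. No source used here says what share of disc cells carried a construct or whether replicates came from separate plants, so p-values measure the spread between these samples only.

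WRKY proteins are plant transcription factors that bind W-box elements in promoters and are best known for roles in defence, senescence and germination. In a green leaf, a small set of transcripts, chiefly those for light-harvesting proteins, the Rubisco small subunit and other chloroplast enzymes, takes up a large part of the messenger RNA. None of the 200 members could be paired with a gene: 0 of 200 matched an entry of RefSeq's HanXRQr2.0 sunflower annotation, so neither gene functions nor leaf marker genes were analysed here. Probe brightness also depends on the probe itself, and several probes may detect a single transcript. The members are therefore treated as bright probes and not as 200 different transcripts in order of abundance. In bulk discs, fewer cells of a type and less RNA per cell cannot be told apart.

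Levels of the members, the values that chose them, ran down by rank from a mean of 10.76 to 6.94 on the log2 scale. The lowest member on HaWRKY10 replicates 1 to 3 was at 6.76, 6.47 and 5.90, against 6.51, 6.38 and 6.64 on control replicates 1 to 3. The edge of the set was not a natural gap. Inside it, CUST_9941_PI423492394, CUST_8412_PI423492394 and CUST_2723_PI423492394 in the last places, to rank 200, had mean levels of 6.94, 6.94 and 6.94. Just outside, CUST_26382_PI423492394, CUST_31908_PI423492394 and CUST_8466_PI423492394 had mean levels of 6.93, 6.92 and 6.92.

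**Figure D1:**
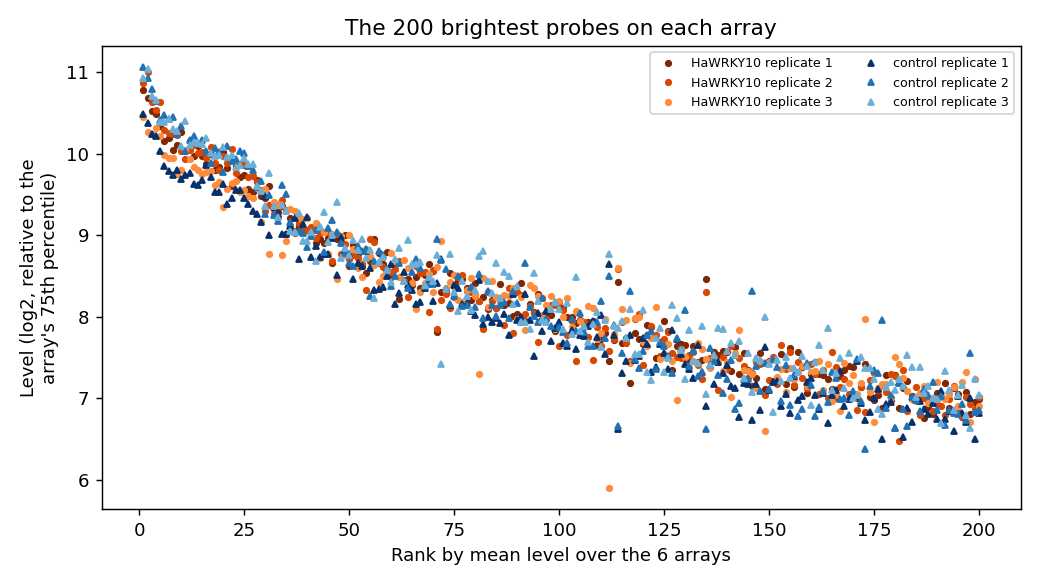
Level of each of the 200 members on each array (vertical axis, log2 units relative to the array's 75th percentile) against rank by mean level (horizontal axis), with circles for the 3 HaWRKY10 arrays and triangles for the 3 control arrays. The lowest single value, 5.90, belongs to CUST_11370_PI423492394 at rank 112 on HaWRKY10 replicate 3.

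Most members were among the brightest probes in either group taken alone. Such overlap is partly built in, because the mean level that chose the members was taken over these same arrays. The counts therefore describe how far the lists overlap and are not an independent test of stability. Of the members, 190 were among the 200 brightest qualifying probes of the HaWRKY10 arrays alone and 192 among those of the control arrays alone, and 182 were in both. The 200 brightest probes of a single array held 187, 186 and 186 members on HaWRKY10 replicates 1 to 3, against 184, 186 and 184 on control replicates 1 to 3. A core of 157 members was in the 200 brightest of every array, whereas 249 probes were in that set on at least 1 array. Ranking by the median spot intensity kept 191 members, and ranking by the authors' deposited log2 table kept 199.

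A large part of the signal on an array came from these few probes, which were chosen for their high signal on the same arrays. Their share of the summed processed signal over all probes was 45.3%, 46.5% and 43.9% on HaWRKY10 replicates 1 to 3, against 43.5%, 47.9% and 47.2% on control replicates 1 to 3. The mean share was 45.2% ± 1.31 with HaWRKY10 and 46.2% ± 2.37 in the control (SD, n = 3 each), so the groups lay within each other's spread. The 10 brightest members alone held 7.92%, 8.72% and 6.73% on the HaWRKY10 arrays, against 6.98%, 9.36% and 8.62% on the control arrays. In both quantities the ranges of the groups overlapped.

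The members were read almost wholly from the scanner's low-gain pass, which the software scales up where the normal pass runs too bright. On all 6 arrays, 194 of the 200 were flagged as scaled up in this way, and the numbers per array were 200, 200 and 199 on HaWRKY10 replicates 1 to 3, against 200, 195 and 200 on control replicates 1 to 3. No member spot was flagged as saturated. The brightest member reached 77.5%, 82.2% and 63.9% of the stated saturation value on HaWRKY10 replicates 1 to 3, against 74.9%, 74.7% and 72.8% on control replicates 1 to 3. Local background around member spots was a little higher than around the other tested probes, at medians of 30.0, 26.0 and 28.0 against 27.0, 24.0 and 25.5 intensity units on the HaWRKY10 arrays, and 31.0, 28.5 and 30.0 against 28.0, 26.0 and 28.5 on the control arrays. Members were spread over the slide, with 22% to 27.5% of them in each of 4 bands of rows.

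The brightest members differed from the rest in how their raw signal followed the array. The processed signal of CUST_25719_PI423492394, at rank 1, was 448367, 440942 and 370538 intensity units on HaWRKY10 replicates 1 to 3, against 434015, 438231 and 391705 on control replicates 1 to 3. The 75th percentile of the arrays varied far more, at 255, 236 and 265 units with HaWRKY10, against 302, 205 and 200.5 in the control. Once divided by it, the level of this probe became 10.78, 10.87 and 10.45 with HaWRKY10, against 10.49, 11.06 and 10.93 in the control. Control replicate 1, the array with the highest 75th percentile, now held one of the lowest levels, and control replicates 2 and 3, with the lowest percentiles, held the highest. The groups overlapped on either scale.

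The 10 brightest members were CUST_25719_PI423492394, CUST_40877_PI423492394, CUST_39061_PI423492394, CUST_11315_PI423492394, CUST_41092_PI423492394, CUST_41494_PI423492394, CUST_30062_PI423492394, CUST_36092_PI423492394, CUST_27508_PI423492394 and CUST_3250_PI423492394. The place of the control arrays varied between them, and for CUST_41092_PI423492394 HaWRKY10 replicate 2 held the highest level. Each of the 10 varied less over the 6 arrays before scaling than after it, with a median SD of 0.10 log2 units unscaled and 0.24 scaled. Among ranks 1 to 20 this was true of 19 members, among ranks 21 to 50 of 14 of 30, among ranks 51 to 100 of 16 of 50 and among ranks 101 to 200 of 18 of 100. For ranks 101 to 200 the median SD was 0.30 unscaled and 0.22 scaled. These are descriptions of bands of rank within a set chosen by the same signal, and no test was made of them.

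Array by array, the shift had a regular form. The median deviation of ranks 1 to 10 from each probe's own mean, after scaling, was 0.01, 0.11 and -0.23 log2 units on HaWRKY10 replicates 1 to 3, against -0.32, 0.26 and 0.19 on control replicates 1 to 3. It spanned 0.58 units, a 1.495-fold range, where the unscaled signal spanned 0.18 units, a 1.135-fold range. Among the 800 tested probes next below the members the order of the spans was the other way, 0.16 units scaled and 0.55 unscaled. Scaling by a single factor per array thus left the brightest members more spread between arrays than before it, and the probes below the members less spread. The brightest member stood at 63.9% to 82.2% of saturation on these arrays, and the part of the scanner's range in this pattern was not tested.

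**Figure D2:**
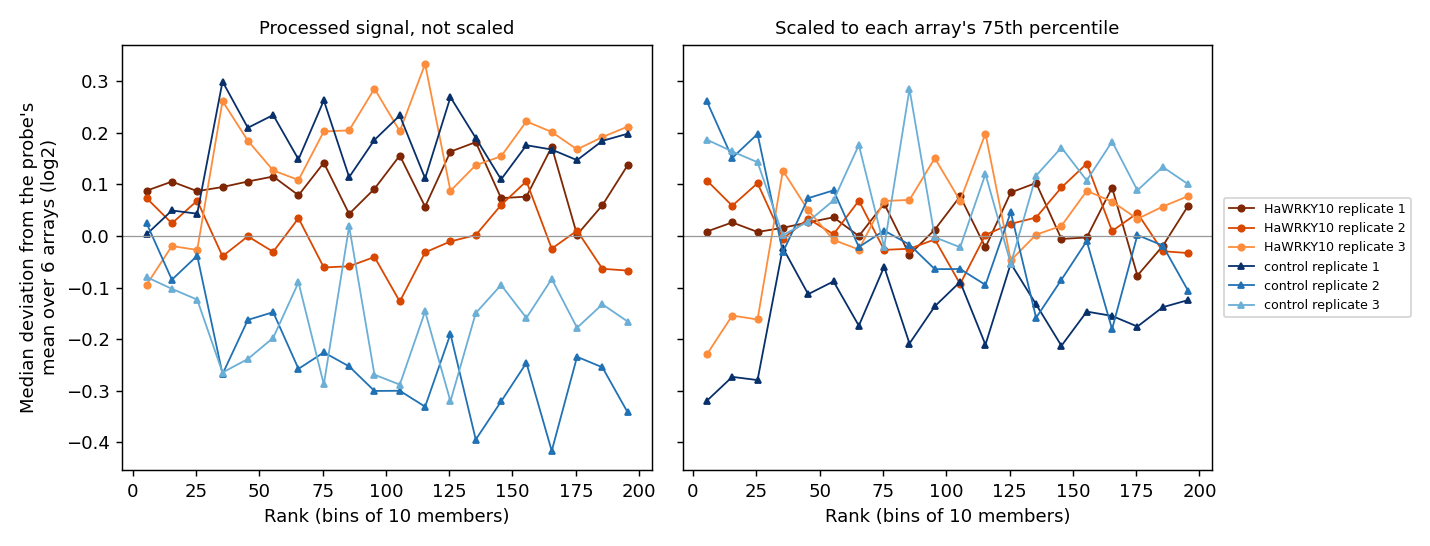
Median deviation of the members from their own mean over 6 arrays (vertical axes, log2 units), in bins of 10 ranks (horizontal axes), before scaling on the left and after scaling to each array's 75th percentile on the right; each line is 1 array, with circles for HaWRKY10 and triangles for the control. For ranks 1 to 10 the lines span 0.18 units on the left and 0.58 on the right.

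Expression of HaWRKY10 was then set against the control for every tested probe. No member passed limma's threshold of an adjusted p under 0.05 over the 21325 tested probes, and the lowest adjusted p among the members was 0.235. Over all tested probes 0.00469% passed, which is 1 probe. At an unadjusted limma p under 0.05 there were 20 members, 10% of them against 12.2% of all tested probes, 15 with a higher and 5 with a lower mean in HaWRKY10 discs. That is 7.5% and 2.5% of the members, where 5.69% and 6.56% of all tested probes lay on the higher and lower side.

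Differences between the groups were small for most members. The median absolute difference was 0.12 log2 units among the members and 0.16 among all tested probes, and the median difference was 0.02 and 0.00. Means within 1.5-fold of each other were found for 96.5% of members. The mean was higher with HaWRKY10 for 106 members, or 53%, against 50.4% of all tested probes. A difference of at least 1.5-fold was measured for 7 members, 3.5% of them, against 6.05% of all tested probes. It was 2 members higher and 5 lower with HaWRKY10, where 2.79% and 3.25% of all tested probes lay on these sides. At least 2-fold, there were 3 members or 1.5%, against 1.7% of all tested probes. Of these, 2 were higher and 1 was lower, beside 0.703% and 0.994% of all tested probes. With 3 arrays per group the median 95% confidence half-width of a member's difference was 0.37 log2 units before any adjustment for the number of probes. After adjustment even the largest differences among the members, -1.66 and 1.49, did not pass.

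The 3 arrays of each group did not overlap for 26 members, 13% of them against 19.3% of all tested probes, 18 with all HaWRKY10 arrays above all control arrays and 8 with all below. Over all tested probes these shares were 9.98% and 9.3%, against 9% and 4% of the members. The excess of higher over lower depended on the scaling. The numbers above and below were 34 and 5 when arrays were scaled to their median, 21 and 11 after quantile normalisation, 17 and 15 when scaled to the members' own median, and 11 and 22 after cyclic loess between arrays. At an unadjusted limma p under 0.05 they were 22 and 4, 15 and 9, 10 and 6, and 9 and 14 in the same order. Of all tested probes, 13.26%, 11.55%, 9.988% and 11.47% had such a p, both directions together. Scaling also moved the other probes. In the same order, the median difference was 0.10, 0.01, -0.04 and 0.00 log2 units over all tested probes, against 0.11, -0.01, -0.03 and -0.09 over the members. Shares of all tested probes without overlap are not given for these scalings. Leaving out control replicate 1 gave 22 above and 41 below without overlap, and leaving out control replicate 3 gave 58 and 13. Fewer arrays overlap less by construction, so these totals cannot be set against the 19.3% of the full design. The matching shares of all tested probes are not given here. Because the balance changed with scaling and with the arrays used, no direction is given for the members as a set.

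Slides showed the same dependence. The HaWRKY10 array was above the control array for 153 of the 200 members on slide 1, 96 on slide 2 and 82 on slide 3, with median differences of 0.20, -0.01 and -0.09 log2 units. Of all 21325 tested probes, 10803, 11138 and 10640 were above on these slides, and the medians were 0.01, 0.02 and -0.00. A difference in one direction on all 3 slides was found for 39 members above and 16 below, or 19.5% and 8% of them, against 21.7% and 19.1% of all tested probes. Across the 200 members, which share arrays and are not independent, the differences on slides 1 and 2 correlated at 0.66, those on slides 1 and 3 at 0.26 and those on slides 2 and 3 at 0.28. Across all tested probes these correlations were 0.425, 0.324 and 0.160.

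The differences of at least 1.5-fold all lay below rank 50. Among ranks 1 to 50 the largest absolute difference was 0.27 log2 units, none of these 50 members had an unadjusted limma p under 0.05 and none separated the groups. Ranks 51 to 100 held 4 members with an unadjusted p under 0.05, and ranks 101 to 200 held 16. Over all tested probes, 12.2% had such a p, 19.3% separated the groups and 6.05% differed at least 1.5-fold. For the member at rank 1 HaWRKY10 minus control was -0.13 ± 0.19 (SE), with 95% confidence bounds of -0.58 and 0.33 (limma adjusted p = 0.812).

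**Figure D3:**
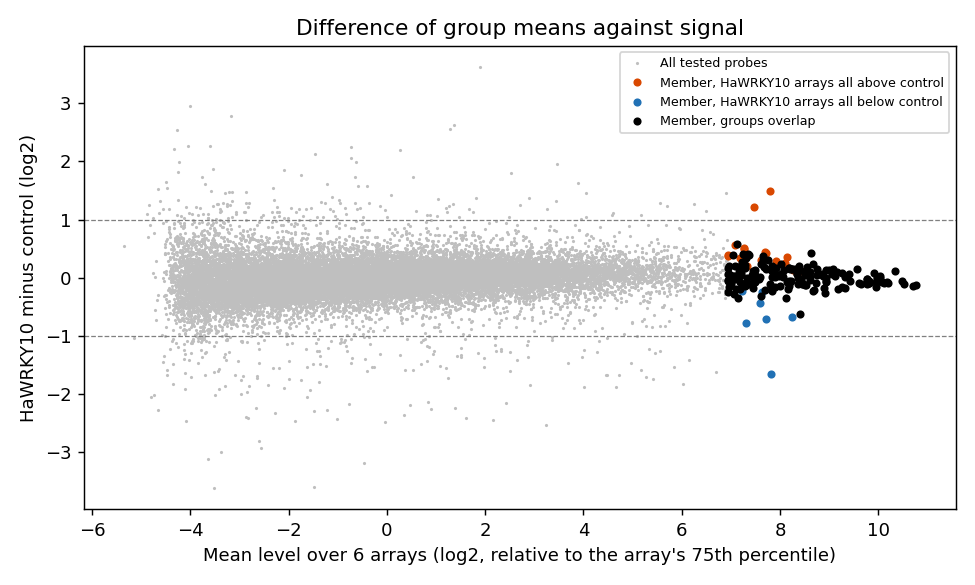
Difference of group means, HaWRKY10 minus control (vertical axis, log2 units), against mean level (horizontal axis, log2 units relative to the array's 75th percentile); small grey points are all 21325 tested probes, large points the members, coloured where the groups do not overlap, and dashed lines mark a 2-fold difference. Of the members, 2 lie above the upper line and 1 below the lower line.

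Among members on the higher side, CUST_11457_PI423492394 (rank 114) had the largest difference. It was measured at 8.43, 8.59 and 8.60 on HaWRKY10 replicates 1 to 3, against 6.62, 6.67 and 7.87 on control replicates 1 to 3. The HaWRKY10 arrays sat close together, while control replicate 3 lay between the other controls and the HaWRKY10 arrays. The means were 8.54 ± 0.10 and 7.05 ± 0.71 (SD, n = 3 each), a 2.81-fold ratio, which is 1.49 ± 0.33 log2 units (SE), with 95% confidence bounds of 0.70 and 2.28 (limma adjusted p = 0.235). Without control replicate 3 the difference was 1.90 and passed (limma adjusted p = 0.0151), and it passed as well after normexp background correction (limma adjusted p = 0.0462). Of all 21325 tested probes, 10 and 58 passed in these fits.

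CUST_11163_PI423492394 (rank 135) came next on this side. Its levels were 8.47, 8.31 and 7.48 in HaWRKY10 discs, against 6.91, 6.63 and 7.05 in control discs. Here it was HaWRKY10 replicate 3 that lay near the other group, and the groups still did not overlap. The difference of 1.22 had a standard error of 0.27 (2.33-fold, limma adjusted p = 0.235), and it was 1.56, 1.68 and 0.43 within slides 1 to 3. With normexp and the replicate block together it passed (limma adjusted p = 0.0126). That fit, cited for other probes below, was added after the data were seen, and 259 of the 21325 tested probes passed in it.

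The other 4 probes named on this side differed by less than 1.5-fold. CUST_33536_PI423492394 (rank 180) measured 7.29, 7.27 and 7.51 with HaWRKY10, against 6.63, 6.64 and 7.11 in the control. CUST_26469_PI423492394 (rank 155) measured 7.62, 7.57 and 7.37 with HaWRKY10, against 6.83, 6.92 and 7.26 in the control. In both, control replicate 3 was the control array nearest to the HaWRKY10 arrays, and the differences were 0.56 and 0.52 (limma adjusted p = 0.298 and 0.294). CUST_27274_PI423492394 (rank 153) measured 7.54, 7.65 and 7.36 with HaWRKY10, against 6.91, 6.97 and 7.22 in the control, a difference of 0.49. CUST_35451_PI423492394 (rank 119) measured 7.73, 8.04 and 8.00 with HaWRKY10, against 7.52, 7.38 and 7.54 in the control, a difference of 0.44. Neither of these passed (limma adjusted p = 0.277 and 0.290), although no array of one group entered the range of the other.

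On the lower side the largest difference was that of CUST_11370_PI423492394 (rank 112). It was measured at 7.46, 7.59 and 5.90 on HaWRKY10 replicates 1 to 3, against 8.64, 8.50 and 8.77 on control replicates 1 to 3. The control arrays agreed closely and HaWRKY10 replicate 3 lay far below the other HaWRKY10 arrays. The means of 6.98 ± 0.94 with HaWRKY10 and 8.64 ± 0.14 in the control (SD, n = 3 each) lay -1.66 ± 0.43 log2 units apart (SE; 3.15-fold), with 95% confidence bounds of -2.68 and -0.63 (limma adjusted p = 0.264). Within slides 1 to 3 the difference was -1.19, -0.91 and -2.87. Leaving out HaWRKY10 replicate 3 reduced it to -1.12, and with normexp and the replicate block together it passed (limma adjusted p = 0.0136).

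CUST_39849_PI423492394 (rank 117) had a smaller but more even difference. HaWRKY10 discs gave 7.19, 7.46 and 7.44, against 7.78, 8.32 and 8.10 in control discs. The difference was -0.70 with a standard error of 0.17 (1.62-fold, limma adjusted p = 0.241), and on slides 1 to 3 it was -0.59, -0.85 and -0.66. It passed with normexp and the replicate block together (limma adjusted p = 0.0235).

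The remaining 4 probes on this side had HaWRKY10 replicate 3 as their lowest array, as CUST_11370_PI423492394 did; 3 are given here, and CUST_15_PI422561325 is described with the probes spotted 10 times. CUST_6938_PI423492394 (rank 149) measured 7.12, 7.05 and 6.60 with HaWRKY10, against 7.64, 7.43 and 8.00 in the control, a difference of -0.77 (limma adjusted p = 0.267). CUST_9784_PI423492394 (rank 81) measured 8.19, 8.19 and 7.30 with HaWRKY10, against 8.45, 8.52 and 8.75 in the control, a difference of -0.68 (limma adjusted p = 0.380). CUST_9678_PI423492394 (rank 128) measured 7.65, 7.51 and 6.98 with HaWRKY10, against 7.73, 7.74 and 7.99 in the control, a difference of -0.44 (limma adjusted p = 0.426). These 5 of the 6 probes named on the lower side, CUST_11370_PI423492394 and CUST_15_PI422561325 included, also had control replicate 3 as their highest array, so slide 3 carried the widest gap for each of them. CUST_14303_PI423492394 (rank 71), named after its values were seen because it completes the 5 members at least 1.5-fold lower, measured 7.82, 7.85 and 8.62 with HaWRKY10, against 8.42, 8.95 and 8.76 in the control. Its groups overlapped, through HaWRKY10 replicate 3.

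**Figure D4:**
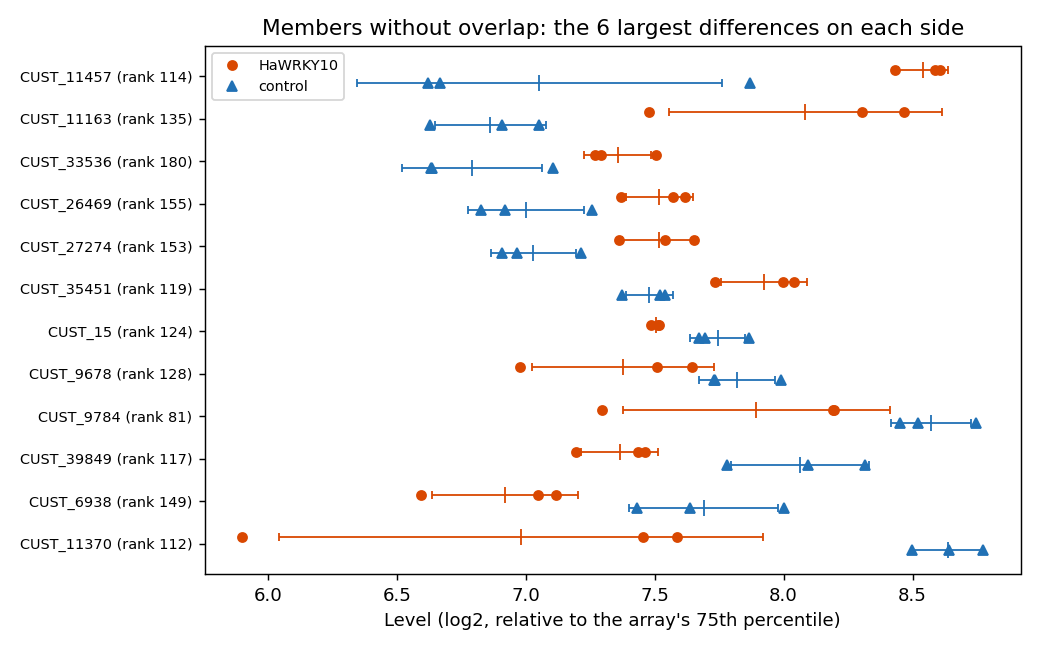
Levels of the 6 members with the largest positive and the 6 with the largest negative differences among those without overlap (horizontal axis, log2 units relative to the array's 75th percentile), ordered from the largest positive to the largest negative difference, HaWRKY10 minus control; circles are the 3 HaWRKY10 arrays, triangles the 3 control arrays, and bars the mean ± SD. The common ending of the probe names is left out, and the widest bar is that of CUST_11370 with HaWRKY10 (SD 0.94).

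A pair of members came from the probes spotted 10 times on each array and these show the spot error at this brightness. CUST_15_PI422561325 (rank 124) averaged 7.51, 7.52 and 7.48 on HaWRKY10 replicates 1 to 3, against 7.67, 7.70 and 7.86 on control replicates 1 to 3. The SD over its 8 to 10 unflagged spots was 0.036 to 0.056 log2 units on each array. The brightest spot in HaWRKY10 discs read 7.607 and the dimmest in control discs 7.609, so even single spots of the groups did not overlap on the scaled levels. The unscaled processed signals overlapped, at 46577, 43146 and 47412 units with HaWRKY10, against 61480, 42452 and 46742 in the control. The difference was small, -0.24 with a standard error of 0.11 (1.18-fold, limma adjusted p = 0.428), and it was -0.16, -0.18 and -0.38 on slides 1 to 3. Spots of one array share that array's RNA, so they add nothing to n.

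CUST_23_PI422561325 (rank 90) averaged 8.04, 8.30 and 7.98 with HaWRKY10, against 7.96, 8.17 and 8.38 in the control. Its spots scattered more, with an SD of 0.067 to 0.160 per array, and the groups overlapped. The difference was -0.07 (limma adjusted p = 0.890). For both probes the SD between control arrays, 0.11 for CUST_15_PI422561325 and 0.21 for CUST_23_PI422561325, was larger than the spot SD on any array. Between HaWRKY10 arrays it was 0.018 for CUST_15_PI422561325, below its spot SD on every array, and 0.17 for CUST_23_PI422561325, above it. Each array value is a mean over several spots, which varies less than a single spot. An SD between arrays below the spot SD therefore does not mean unusually close agreement.

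**Figure D5:**
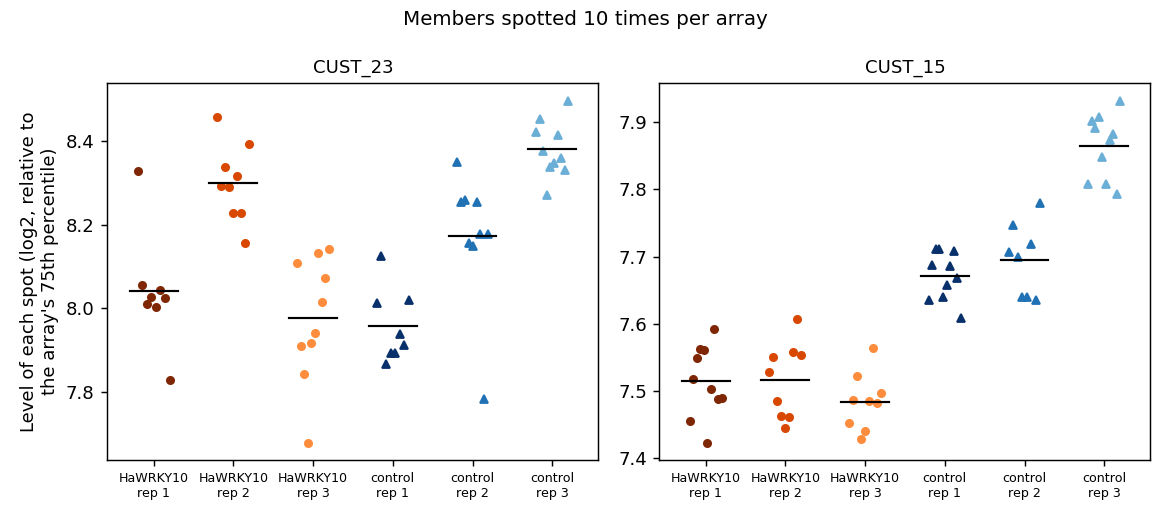
Level of each unflagged spot (vertical axes, log2 units relative to the array's 75th percentile) of the 2 members spotted 10 times per array, with HaWRKY10 arrays as circles on the left of each panel, control arrays as triangles on the right, and lines at the array means. For CUST_15 every HaWRKY10 spot, at most 7.607, lies below every control spot, at least 7.609, on this scale.

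The members varied between replicates about as much as other probes did. Within groups, the members had a median SD of 0.20 log2 units and all tested probes one of 0.19. Split by group, it was 0.14 with HaWRKY10 and 0.21 in the control for the members, and 0.16 and 0.19 for all tested probes. A band of 4000 tested probes of moderate signal, starting 800 places below the members, had a median of 0.14. After scaling, the highest signal thus did not bring the lowest spread. Within the members the median was 0.26 at ranks 1 to 10 and 0.16 at ranks 21 to 50. Before scaling the order was the other way, with a median SD over the 6 arrays of 0.10 at ranks 1 to 10 and 0.28 in the band of 4000. Across the 200 members, pairs of HaWRKY10 arrays correlated at 0.945 to 0.982, pairs of control arrays at 0.941 to 0.968 and pairs between the groups at 0.908 to 0.951.

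Some members varied little within each group after scaling. CUST_41492_PI423492394 (rank 78) measured 8.36, 8.32 and 8.33 with HaWRKY10, against 8.18, 8.15 and 8.26 in the control. CUST_29232_PI423492394 (rank 106) measured 7.91, 7.93 and 7.88 with HaWRKY10, against 7.77, 7.81 and 7.89 in the control. CUST_38068_PI423492394 (rank 68) measured 8.52, 8.55 and 8.42 with HaWRKY10, against 8.36, 8.37 and 8.39 in the control. These 3 had the lowest SDs within groups of all members, 0.042 to 0.049 log2 units, and none passed the limma threshold (adjusted p = 0.582 to 0.760). For CUST_41492_PI423492394 and CUST_38068_PI423492394 all HaWRKY10 arrays lay above all control arrays. Unscaled, the processed signals of the 3 probes, in the order given, ran from 58101 to 87221, 45968 to 65612 and 67458 to 98879 units.

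At the other end, 7 members had an SD over the 6 arrays of at least 0.5 log2 units, 3.5% of them against 8.83% of all tested probes, and in several a single array made the difference. CUST_9012_PI423492394 (rank 72) was at 8.31, 8.20 and 8.93 with HaWRKY10, against 8.71, 8.70 and 7.42 in the control, with control replicate 3 alone far below. CUST_34980_PI423492394 (rank 146) was at 7.16, 7.31 and 7.30 with HaWRKY10, against 6.74, 8.32 and 7.08 in the control, with control replicate 2 alone far above. Neither difference, 0.20 and -0.12, passed (limma adjusted p = 0.861 and 0.918). Both are among the 3 members of highest SD within groups, the third being CUST_11370_PI423492394.

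The array that stood off CUST_34980_PI423492394 did so for a second probe as well. CUST_8325_PI423492394 (rank 177), found by searching the members for the nearest pattern and so chosen after its values were seen, read 6.88, 7.16 and 7.18 with HaWRKY10, against 6.51, 7.96 and 6.81 in the control. The patterns of these probes over the 6 arrays correlated at 0.988 and differed by a root mean square of 0.080 log2 units after centring. CUST_9784_PI423492394 and CUST_9678_PI423492394, both low on HaWRKY10 replicate 3, correlated at 0.987 with a distance of 0.16. Correlations over 6 arrays picked from 200 candidates are given as a description only, and whether these probes detect one transcript was not tested. A single array lay at least 0.5 log2 units above or below the 5 others for 4 members on HaWRKY10 replicate 3, for 3 on control replicate 2 and for 1 on control replicate 3. That is 2%, 1.5% and 0.5% of the members. Over all tested probes, 0.75% stood above and 1.42% below on HaWRKY10 replicate 3, 1.25% and 0.975% on control replicate 2, and 1.6% and 2.01% on control replicate 3. On the remaining arrays no member did so.

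The identifiers of the members were unevenly spread over the numbering of the array design, a feature the choice of members did not use. The pair spotted 10 times is numbered apart and is left out here. Only 3 of 2290 tested probes numbered 15001 to 20000 and 4 of 2132 numbered 20001 to 25000 were members, or 0.131% and 0.188%. Between 10001 and 15000 the share was 1.48% (43 of 2913), between 35001 and 40000 it was 1.90% (41 of 2161), and from 40001 upwards it was 2.20% (18 of 819). Among probes numbered 1 to 5000 it was 0.274% (10 of 3652). What the numbering stands for was not stated in any source used. The 4 pairs of members with consecutive numbers correlated over the 6 arrays at 0.02 to 0.66.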

How the data were processed

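RNA of 6 leaf disc samples was measured on 1 single-colour (Cy3) Agilent array each. The deposited intensity values are background-subtracted, spatially detrended processed signals, made with Agilent Feature Extraction 11.5.1.1 per the file headers, whereas the submitters' processing notes name 9.1. These signals carry no scaling between arrays. The deposited log2 table, with a normalisation that no source used here states, served as an alternative. The number of arrays limits the precision.

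Spots flagged as outliers were left out, log2 processed signal was averaged per probe, and the array's 75th percentile was subtracted. Probes well above background on at least 3 of 6 arrays were tested, 21325 in all, by lmFit and eBayes of limma 3.58.1 (R 4.3.3, no covariate) and Benjamini-Hochberg adjustment at 0.05. The fit was also run on simulated data in which arrays were drawn independently, without shared slides. That run does not bear on the slide pairing described below. Summaries used Python 3.11.15.

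Deviations from group means correlated between same-numbered arrays at 0.173, 0.249 and 0.232 across tested probes, all above 0.1, and at 0.0482, 0.348 and -0.00821 across the members alone. Differently numbered arrays of the 2 groups correlated at -0.225 to 0.0245 across tested probes and at -0.305 to 0.219 across the members. Same-numbered arrays share a slide and were read as pairs in the differences by slide. The main limma fit takes no account of this pairing, and a fit with the replicate block is an alternative. Other alternatives were quantile, median, cyclic loess and members' median scaling, normexp (offset 50), other filters, a variance trend with robust eBayes, and leaving out each array.

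The members, the lists and the tests were chosen with earlier results of these data known. Probes named in the text are the 10 brightest members, the 6 largest differences without overlap on each side, the 3 highest and 3 lowest SDs, the 3 members and the 3 probes on either side of rank 200 and the members spotted 10 times; exceptions are marked. Gene lists and cell type markers were not used, since no member is paired with a gene. Probe sequences were not analysed here.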

Additional observations from a re-analysis of the deposited data

How the results depend on the processing

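Cyclic loess, scaling to the members' median and the fits that join the replicate block with normexp or with a variance trend and robust eBayes were added once the data had been seen, and so chosen after seeing them. A total of 0 members past the limma adjusted threshold (20 at an unadjusted p under 0.05) became 1 after normexp background correction and 4 after normexp with the replicate block, and 0 to 1 when 1 array was left out; those 4 were CUST_11457_PI423492394, CUST_11163_PI423492394, CUST_11370_PI423492394 and CUST_39849_PI423492394 (adjusted p = 0.00228, 0.0126, 0.0136 and 0.0235), against ranges of 0.00228 to 0.581, 0.0126 to 0.592, 0.0136 to 0.572 and 0.0235 to 0.592 over all alternatives. With the replicate block alone it stayed at 0, with 22 members at an unadjusted p under 0.05, and the block changed no member's call unless joined with normexp. Calls rose outside the members too. Among all 21325 tested probes, 1 passed the limma adjusted threshold in the main fit and 0 with the replicate block alone. After normexp 58 passed, and after normexp with the replicate block 259. Without 1 array 0 to 10 passed, the upper end without control replicate 3. The 20 members at an unadjusted p under 0.05 became 32 after normexp with the replicate block and 14 to 31 without 1 array. Of all tested probes, 12.25% had such a limma p in the main fit and 11.01% after normexp with the replicate block. Without 1 array the share of all tested probes was 7.25% to 16.83%, the upper end again without control replicate 3. Without 1 array, 29 to 71 members did not overlap, where fewer arrays overlap less by construction, and 5 to 11 members differed at least 1.5-fold; the upper ends, 71, 31 and 11, all came without control replicate 3. For these counts without overlap and at 1.5-fold, the matching shares of all tested probes are not given here. The cause was not tested.

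The following differences of named probes changed sign, all with limma adjusted p-values far above the threshold. After quantile normalisation CUST_11315_PI423492394 gave 0.0215, CUST_3250_PI423492394 0.0506 and CUST_2723_PI423492394 -0.0264. After median scaling the values were 0.0371 for CUST_11315_PI423492394, 0.0874 for CUST_3250_PI423492394, 0.00077 for CUST_41494_PI423492394, 0.0148 for CUST_30062_PI423492394, 0.00737 for CUST_36092_PI423492394, 0.0172 for CUST_27508_PI423492394 and 0.0292 for CUST_23_PI422561325. In the authors' log2 table they were 0.0684 for CUST_11315_PI423492394, 0.262 for CUST_3250_PI423492394, -0.0274 for CUST_2723_PI423492394 and 0.13 for CUST_23_PI422561325. After cyclic loess CUST_41092_PI423492394 gave -0.00892, CUST_29232_PI423492394 -0.0271 and CUST_2723_PI423492394 -0.0370. Leaving out 1 array gave ranges of -0.20 to 0.02 for CUST_11315_PI423492394, -0.18 to 0.14 for CUST_3250_PI423492394, -0.29 to 0.0254 for CUST_41494_PI423492394, -0.29 to 0.0285 for CUST_30062_PI423492394, -0.30 to 0.0574 for CUST_36092_PI423492394, -0.23 to 0.0617 for CUST_27508_PI423492394, -0.17 to 0.0400 for CUST_23_PI422561325, -0.0061 to 0.21 for CUST_41092_PI423492394, -0.34 to 0.0568 for CUST_40877_PI423492394, -0.23 to 0.42 for CUST_9012_PI423492394, -0.0068 to 0.36 for CUST_8412_PI423492394 and -0.44 to 0.35 for CUST_34980_PI423492394. The median difference of the members ranged from -0.09 after cyclic loess to 0.11 after median scaling. Over all tested probes it was 0.00 after cyclic loess and 0.10 after median scaling. Signal over background does not limit the members.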
